A study of Saccharomyces cerevisiae with 6 samples.

Results

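Meiosis and sporulation genes of budding yeast were examined in cells whose Hsp90, an abundant chaperone that folds many signalling proteins, is a point mutant. The set is a fixed list of 48 genes that regulate, carry out or complete meiosis and spore formation, out of 5449 S. cerevisiae genes on the arrays. Each member was matched by gene symbol to its probe set in the platform annotation, and all 48 had exactly 1 probe set. Total RNA came from 3 cultures expressing hsc82-W296A, in which a tryptophan of Hsc82 is replaced by alanine, and 3 cultures expressing WT Hsc82, with 1 Affymetrix array per culture. Both groups are strain JJ816, which lacks the chromosomal HSC82 and HSP82 genes, and each carries its HSC82 allele on a plasmid as the sole source of Hsp90. Cultures grew in rich YPD medium at 30 °C and were collected in exponential phase at an optical density of 0.5, a condition in which yeast normally divides by mitosis and does not sporulate. The labels call the cultures biological replicates and give neither ploidy nor mating type.

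Sporulation is a cascade of transcription that starved diploid cells switch on. Ime1, the master activator, turns on early genes by acting at promoters held silent by the repressor Ume6, and its own gene is kept down in haploid cells by Rme1 and in fed cells by nutrient signals. Early genes encode the machinery of meiotic recombination and chromosome pairing. The kinase Ime2 and the transcription factor Ndt80 then drive the middle genes, which the repressor Sum1 keeps off in growing cells and which build the prospore membrane and the spore wall, before late genes finish the wall.

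The values are levels on the log2 scale as deposited, and each change is hsc82-W296A minus WT Hsc82, so that 1 is a 2-fold difference. Tests are from the limma fit over all S. cerevisiae probe sets with Benjamini-Hochberg adjustment, and "rose" or "fell" is used only for an adjusted p under 0.05. Probe sets for another species on the array served as the background: a value was read as above background when it exceeded the 95th percentile of those probe sets on the same array. That level was 7.91 to 8.02 on the hsc82-W296A arrays and 8.16 to 8.46 on the WT Hsc82 arrays. Levels of different probe sets are not comparable with each other. The plasmid-borne HSC82 itself read 14.53, 14.53 and 14.56 in hsc82-W296A, against 14.24, 14.30 and 14.30 in WT Hsc82, which does not check the substitution. HSP82, deleted from the chromosome in both groups and nearly identical in sequence to HSC82, read 10.31 in hsc82-W296A and 10.03 in WT Hsc82 on average.

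Most of the 48 genes were higher in the mutant, although many were near the limit of detection. Of the 48, 30 rose and 5 fell, against 37.1% of all genes higher and 30.3% lower, and after quantile normalization, which forces every array to one distribution of values, the counts were 16 higher and 13 lower, against 28.4% of all probe sets higher and 44.5% lower. As deposited, the other 13 did not pass. The median change of the 48 was 0.38 as deposited, beside 0.04 over all S. cerevisiae probe sets, and it was 0.06 after quantile normalization, where that of all probe sets was -0.09. The members called at least 2-fold higher numbered 12, against 8.9% of all genes, and 0 were at least 2-fold lower, against 0.863%. The arrays of the groups did not overlap for 30 members that were higher (39.5% of all genes) and 6 that were lower (34.1% of all genes). The median level of the 48 was 8.57 to 8.70 on the hsc82-W296A arrays and 8.10 to 8.34 on the WT Hsc82 arrays, while foreign-species probe sets had medians of 6.38 to 6.46 in hsc82-W296A and 6.52 to 6.70 in WT Hsc82, so the members were higher on arrays whose background was lower. RNA of a whole culture was measured, so a higher level in every cell and a larger share of cells with the transcript cannot be told apart.

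Background decides how much of this can be sized. Above background on at least 1 array of both groups were 25 members, of which 16 rose, 5 fell and 4 did not pass, against 36.1% higher and 31.7% lower among all genes in that position. Another 12 were above background in hsc82-W296A only and 0 in WT Hsc82 only. Of these 12, 10 rose, against 89.5% of all genes above background in hsc82-W296A only, a share that the way they were separated largely sets. For 6 of these 12 the fold is a lower bound, measured against the WT Hsc82 arrays' own background, and for the other 6 the mutant level is too close to that background to give one. The remaining 11 were above background in neither group, where 4 rose and 0 fell, against 23.3% higher and 17.0% lower among the 223 S. cerevisiae genes in the same position. No fold is given for those 11. By the mean over the 6 arrays, 21 of the 48 were at or below 8.14, the level that 95% of foreign-species probe sets stay under by their mean.

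**Figure D1:**
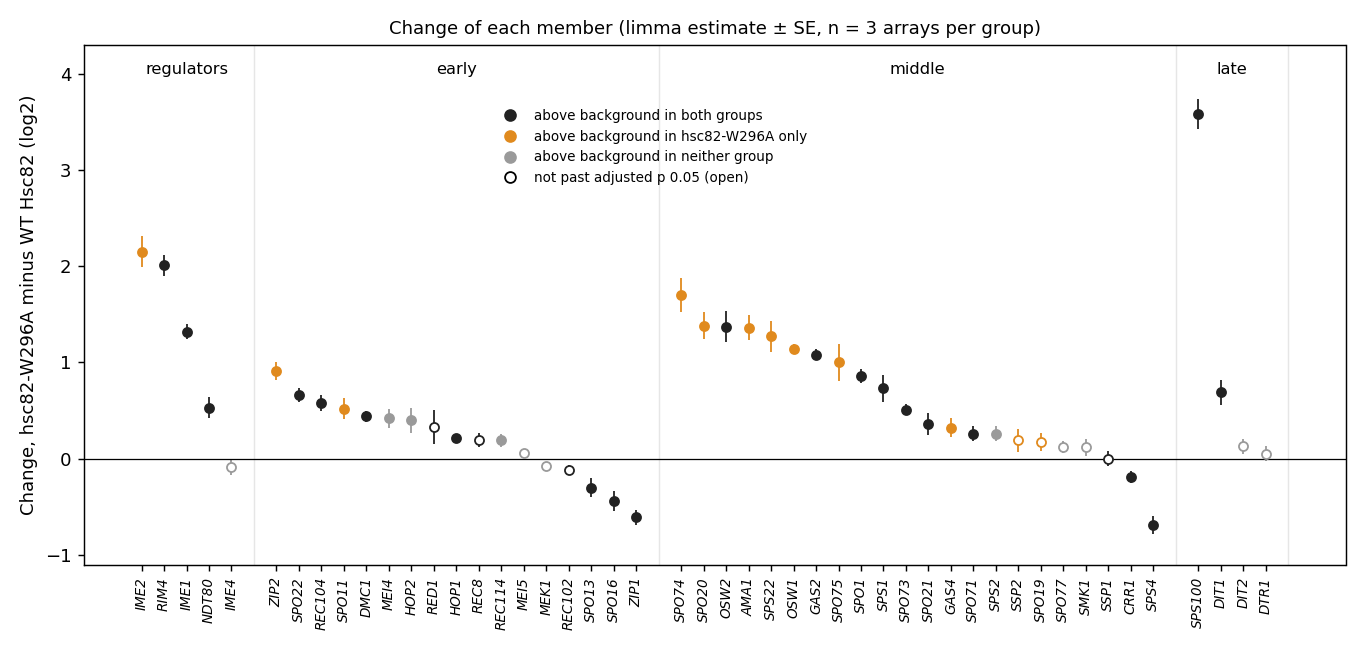
Measured change of each of the 48 genes on the log2 scale (vertical axis, hsc82-W296A minus WT Hsc82, limma estimate with SE as bars, n = 3 arrays per group), grouped into regulators, early, middle and late genes. Colour gives the groups in which a gene was above background and open points did not pass an adjusted p of 0.05. Among genes above background on all 6 arrays, RIM4 at 2.01 and IME1 at 1.32 are the highest. The values of IME2 and SPS100 are measured against WT Hsc82 levels near or under background, and ZIP1 at -0.61 and SPS4 at -0.69 are the lowest.

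The regulators that start meiosis were among the clearest increases. IME1, the master transcription factor, read 11.15, 11.38 and 11.37 in hsc82-W296A, against 10.08, 9.95 and 9.91 in WT Hsc82. The groups were more than a log2 unit apart, and IME1 rose by 1.32 ± 0.081 (SE, n = 3 arrays per group, adjusted p = 2.28e-05), or 2.49-fold. Its level was well above background in both groups, so IME1 transcript was already detected in growing cells with WT Hsc82. IME2, the kinase that Ime1 induces, read 9.94, 10.16 and 10.08 in hsc82-W296A, against 7.53, 8.10 and 8.08 in WT Hsc82, where it was not above background on any array. IME2 was at least 3.37-fold higher in hsc82-W296A (adjusted p = 4.2e-05).

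RIM4, an RNA-binding protein needed for early meiosis that holds back translation of middle transcripts, read 10.82, 10.87 and 11.07 in hsc82-W296A, against 9.12, 8.84 and 8.77 in WT Hsc82. It rose by 2.01 ± 0.11 (adjusted p = 1.35e-05), or 4.01-fold, with no overlap between groups. NDT80, the activator of the middle genes, moved less. It read 9.66, 9.55 and 9.78 in hsc82-W296A, against 8.99, 9.05 and 9.37 in WT Hsc82, and rose by 0.53 ± 0.11 (adjusted p = 0.0055), but the change was 0.12 after quantile normalization and no longer passed (adjusted p = 0.200). IME4, an mRNA methyltransferase that promotes entry into meiosis, read 6.11, 5.91 and 5.93 in hsc82-W296A and 6.17, 6.11 and 5.94 in WT Hsc82, below background on all 6 arrays. The antisense RNA RME2 is annotated over all 1803 bases of IME4 in the RefSeq table of assembly R64, and the strand that the probes read is not given in the sources used here.

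**Figure D2:**
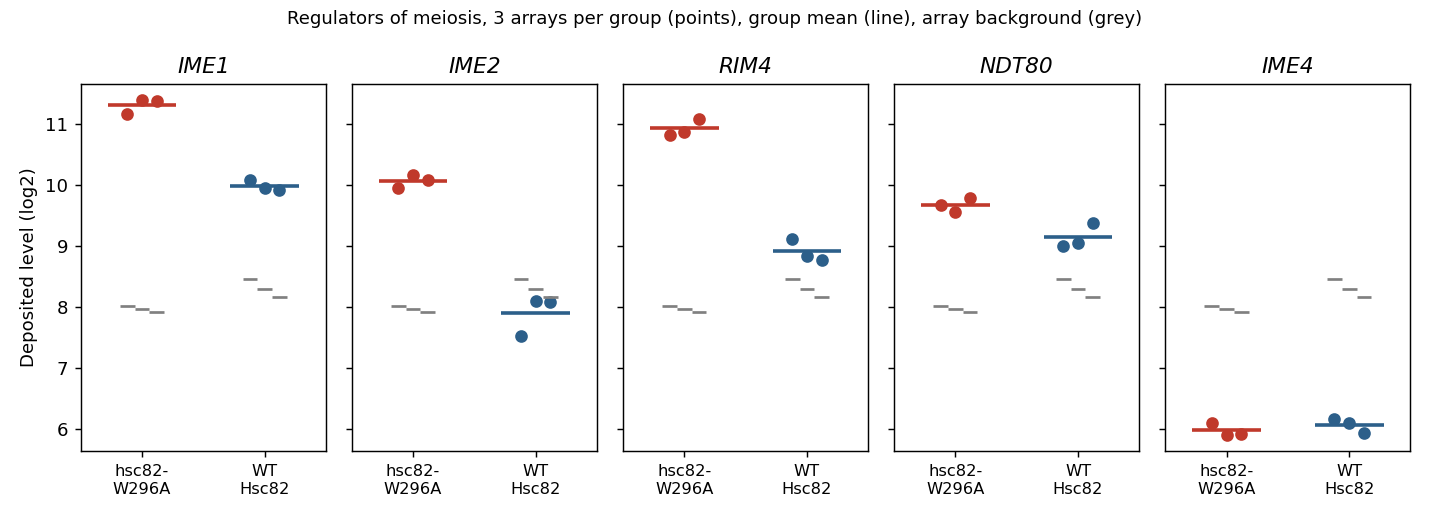
Level of the 5 regulators on each array (log2, vertical axis), with hsc82-W296A left of WT Hsc82 in each panel, a point per array, a line at the mean of 3 arrays and grey marks at each array's background. IME1 lies apart by 1.32, RIM4 by 2.01 and NDT80 by 0.53, IME2 is above the background marks in hsc82-W296A only, and IME4 lies under the background marks in both groups.

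The early genes gave a mixed picture of small changes. Of 17, 9 rose and 3 fell, against 37.1% and 30.3% of all genes, or 2 and 6 after quantile normalization, against 28.4% and 44.5% of all probe sets. The median change of 0.21 was -0.08 there. None of the 17 was called at least 2-fold higher. The early genes were the one class whose median changed sign between scalings, as the plot of the 4 scalings shows.

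Among genes for pairing and synapsis, 2 of the 4 members rose and 2 fell, against 37.1% of all genes higher and 30.3% lower. ZIP1, which forms the transverse filaments joining paired chromosomes, read 8.72, 8.90 and 8.84 in hsc82-W296A, against 9.30, 9.43 and 9.55 in WT Hsc82. It fell by 0.61 on the log2 scale (SE 0.078, adjusted p = 0.000496), and every mutant array was below every WT Hsc82 array. SPO16 read 8.96, 8.70 and 8.77 in hsc82-W296A, against 9.07, 9.34 and 9.34 in WT Hsc82, and fell by 0.44 (adjusted p = 0.00685). SPO22, also known as Zip4, read 9.11, 9.19 and 9.32 in hsc82-W296A, against 8.53, 8.47 and 8.64 in WT Hsc82, and rose by 0.66 ± 0.071 (adjusted p = 0.000224), or by 0.18 after quantile normalization. ZIP2 averaged 8.23 ± 0.062 in hsc82-W296A and 7.31 ± 0.18 in WT Hsc82 (SD, n = 3 each). It was above background in the mutant only and too near it for a fold (adjusted p = 0.000162). The proteins of ZIP2, SPO16 and SPO22 form a complex that promotes crossing over, and here the transcript of SPO16 moved against those of the other two. These 4 calls held under 13 alternative settings of scaling, filter, model and left-out array, except that ZIP2 was not tested where dim probe sets were left out. The antisense RNA RME3 is annotated over 1905 of the 2115 bases of ZIP2, so sense and antisense transcript cannot be told apart there either.

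Genes for making and repairing the programmed DNA breaks were higher where they passed as deposited, but none of those for making breaks was called higher after quantile normalization. Of the 5 members for break formation, 4 rose and 0 fell, against 37.1% of all genes higher and 30.3% lower. Of these 4, REC104 alone was above background in both groups. REC104, a subunit of the break-forming complex, read 9.15, 9.26 and 9.29 in hsc82-W296A, against 8.50, 8.66 and 8.79 in WT Hsc82, and rose by 0.58 ± 0.082 (adjusted p = 0.000792). SPO11, the enzyme that cuts the DNA, averaged 8.17 ± 0.071 in hsc82-W296A and 7.65 ± 0.22 in WT Hsc82 (adjusted p = 0.00554) and was above background in the mutant only. MEI4 and REC114 passed with both groups below background, at 7.55 and 7.13 in hsc82-W296A and 7.13 and 6.95 in WT Hsc82, and REC102, above background on 2 of 3 WT Hsc82 arrays, did not pass (-0.12, adjusted p = 0.0771). REC102 was called lower after quantile normalization (-0.57, adjusted p = 0.000146), after median centring (-0.24, adjusted p = 0.0055) and without hsc82-W296A replicate 3 (-0.17, adjusted p = 0.0339). REC104, SPO11 and MEI4 each stood at 0.08 and REC114 at -0.08 after quantile normalization, none of them past the threshold. The call of REC114 was also lost without hsc82-W296A replicate 2 or 3 or WT Hsc82 replicate 1 or 2 (adjusted p = 0.101 to 0.137). The same held after median centring (adjusted p = 0.273) and with an intensity trend in the fit (0.0981).

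DMC1, the meiotic recombinase, read 9.69, 9.63 and 9.73 in hsc82-W296A, against 9.17, 9.21 and 9.34 in WT Hsc82. The groups did not overlap, and DMC1 rose by 0.44 ± 0.06 (adjusted p = 0.000648), but by 0.06 after quantile normalization (adjusted p = 0.311). Its partners HOP2 and MEI5 were below background on all 6 arrays, at 6.24 and 5.17 in hsc82-W296A and 5.83 and 5.12 in WT Hsc82. HOP2 passed as deposited (adjusted p = 0.032), but not after quantile normalization (0.0501) or without WT Hsc82 replicate 1 (0.0852) or 2 (0.0829). MEI5 did not pass as deposited (adjusted p = 0.239) and did when the arrays were rescaled to match background and middle levels (0.34, adjusted p = 0.00584).

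Genes of the chromosome axis and of cohesion changed little or did not pass. HOP1, an axis protein, read 9.01, 8.99 and 8.94 in hsc82-W296A, against 8.77, 8.78 and 8.77 in WT Hsc82. It rose by 0.21 ± 0.041 (adjusted p = 0.00382) as deposited and stood at -0.26 after quantile normalization (adjusted p = 0.0165), so its direction depends on the scaling. SPO13, which keeps sister centromeres together in the first division, averaged 8.41 ± 0.15 in hsc82-W296A and 8.72 ± 0.14 in WT Hsc82 and fell by 0.30 (adjusted p = 0.032), a call lost when hsc82-W296A replicate 2 or 3 or WT Hsc82 replicate 1 or 2 was left out. REC8, the meiotic cohesin subunit, stood at 0.19 (adjusted p = 0.0528), and passed without WT Hsc82 replicate 1 (0.26, adjusted p = 0.00982). It also passed when the arrays were rescaled to match background and middle levels (0.24, adjusted p = 0.0215). The axis kinase gene MEK1 was below background in both groups and did not pass as deposited (adjusted p = 0.189). It was called lower after quantile normalization (-0.39, adjusted p = 0.00533) and median centring (-0.2, adjusted p = 0.0336). RED1, the axis partner of HOP1, read 8.73, 8.84 and 9.14 in hsc82-W296A, against 8.27, 8.53 and 8.93 in WT Hsc82. Its groups overlapped, 2 of 3 WT Hsc82 arrays were above background, and it did not pass (0.33, adjusted p = 0.151), but it passed with the replicate number as a block (adjusted p = 0.00372) and without WT Hsc82 replicate 3 (0.50, adjusted p = 0.0235).

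**Figure D3:**
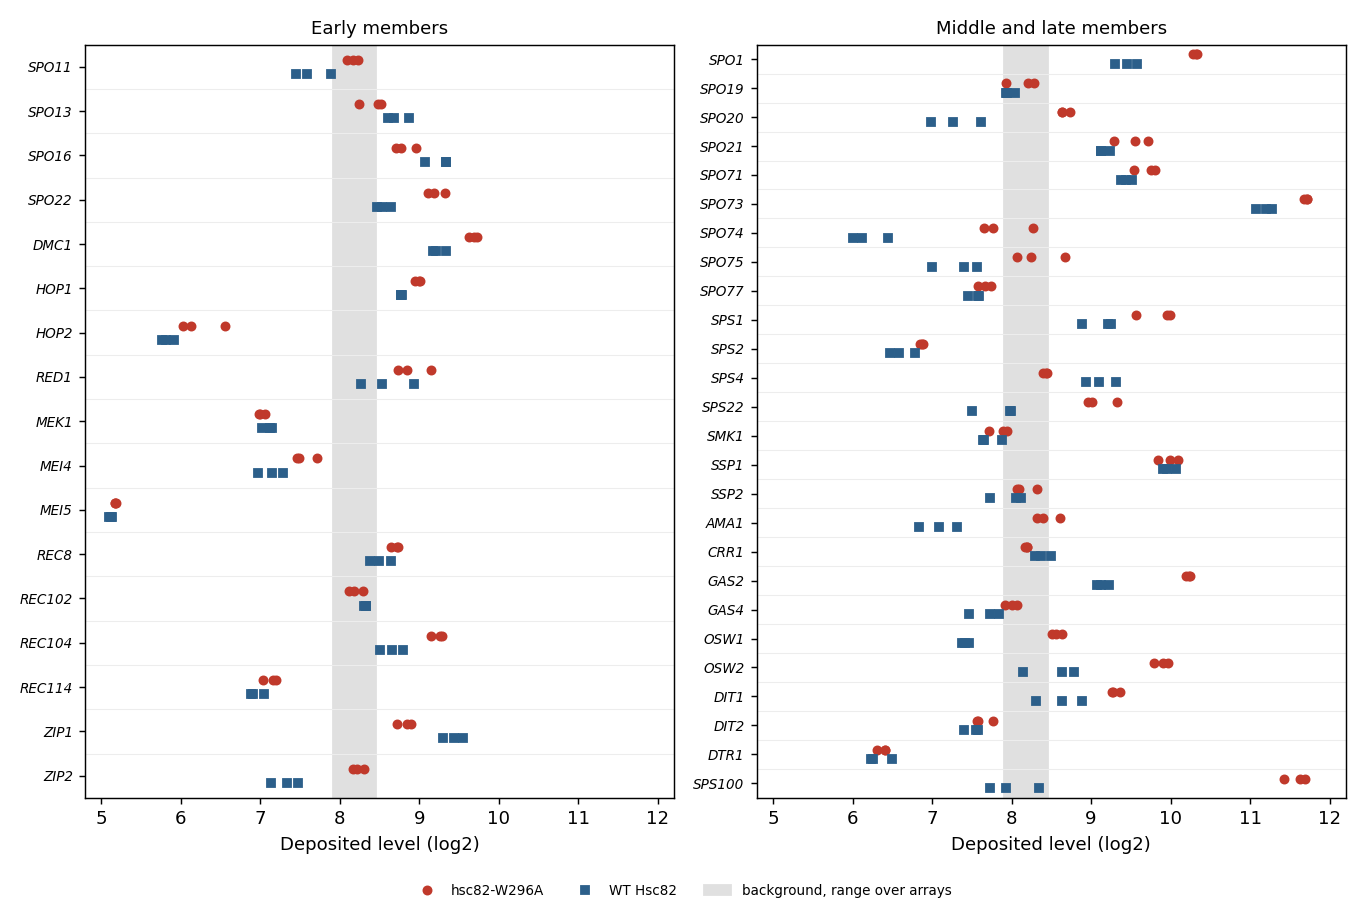
Level of each early, middle and late gene on each array (log2, horizontal axis), with hsc82-W296A circles above WT Hsc82 squares in each row and the range of background over the 6 arrays shaded. Positions can be compared within a row but not between rows. SPS100 lies far to the right of its WT Hsc82 squares, SPO20, SPS22 and OSW1 lie above the shaded range only in hsc82-W296A, and the points of MEI5, HOP2 and DTR1 lie at 6.55 or lower.

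As deposited, middle genes held most of the increases called at least 2-fold. Of 22, 15 rose and 2 fell, against 37.1% and 30.3% of all genes, or 10 and 6 after quantile normalization, against 28.4% and 44.5% of all probe sets. The median was 0.44, and 0.19 after quantile normalization. Those called at least 2-fold higher on the measured scale were 8 of the 22, against 8.9% of all genes. Only GAS2 and OSW2 among these 8 were above background in both groups. After quantile normalization 5 of the 48 were called at least 2-fold higher, against 356 of all 5498 probe sets. SPO74 (1.41), above background on 1 mutant array, was the only middle gene among those 5.

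Genes of the spore wall were mostly higher. Of 9 middle genes assigned to the spore wall after the values were seen, 7 rose, 1 fell and 1 did not pass as deposited. Of all genes, 37.1% were higher and 30.3% lower. GAS2, a glucan-remodelling enzyme of the spore wall, read 10.25, 10.23 and 10.19 in hsc82-W296A, against 9.07, 9.12 and 9.23 in WT Hsc82. It rose by 1.08 ± 0.055 (adjusted p = 1.02e-05), or 2.11-fold, with a wide gap between groups. OSW2, needed for the outer spore wall, read 9.79, 9.91 and 9.97 in hsc82-W296A, against 8.15, 8.78 and 8.64 in WT Hsc82, where 2 of 3 arrays were above background. It rose by 1.37 ± 0.16 (adjusted p = 0.000294), and was at least 2.40-fold higher with the array under background set to that level.

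OSW1, another outer wall gene, read 8.56, 8.51 and 8.63 in hsc82-W296A, against 7.38, 7.42 and 7.47 in WT Hsc82, all below background. It was at least 1.20-fold higher in hsc82-W296A (adjusted p = 6.35e-06). SPS22, a wall glycoprotein gene, was at least 1.73-fold higher, averaging 9.10 ± 0.20 in hsc82-W296A and 7.82 ± 0.28 in WT Hsc82 (adjusted p = 0.000425). SPO75, needed for spore formation, was at least 1.02-fold higher, at 8.33 in hsc82-W296A and 7.32 in WT Hsc82 (adjusted p = 0.0035). GAS4, the close relative of GAS2, lay at 7.92 to 8.07 in hsc82-W296A and 7.47 to 7.84 in WT Hsc82 (adjusted p = 0.0266, with a change of -0.11 after quantile normalization). Its call was also lost after median centring (adjusted p = 0.06) and without hsc82-W296A replicate 1 or 2 or WT Hsc82 replicate 2 (adjusted p = 0.0533 to 0.0707). SPS2, the relative of SPS22, passed as deposited with both groups below background, at 6.87 in hsc82-W296A and 6.61 in WT Hsc82 (adjusted p = 0.0247). That call was lost after quantile normalization (adjusted p = 0.887) and median centring (0.212), and in each fit that left out 1 array (0.0524 to 0.0747) other than WT Hsc82 replicate 1. CRR1, a predicted wall glycosidase, fell by 0.19 on the log2 scale (adjusted p = 0.0215) with 2 of 3 WT Hsc82 arrays above background. The call was lost when the arrays were rescaled to match background and middle levels (adjusted p = 0.165) and with an intensity trend in the fit (0.0897). It was also lost without hsc82-W296A replicate 2 or 3 or WT Hsc82 replicate 2 (0.0586 to 0.066).

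Genes of the prospore membrane, which grows from the spindle poles around each nucleus, were also mostly higher as deposited. Of 7 members, 6 rose and 0 fell, against 37.1% of all genes higher and 30.3% lower. SSP1, a coat protein of the membrane's leading edge, averaged 9.97 in both groups (adjusted p = 0.982). After quantile normalization SSP1 was called lower (-0.29, adjusted p = 0.0296). SPO1, a phospholipase-like protein, read 10.32, 10.28 and 10.33 in hsc82-W296A, against 9.30, 9.45 and 9.58 in WT Hsc82, and rose by 0.86 ± 0.074 (adjusted p = 8.2e-05), or 1.82-fold. SPO20, a fusion protein of the prospore membrane, read 8.64, 8.63 and 8.73 in hsc82-W296A, against 6.99, 7.26 and 7.61 in WT Hsc82. It was at least 1.28-fold higher (adjusted p = 0.000194), since its WT Hsc82 values were all under background.

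SPO74, a component of the meiotic spindle pole plaque, read 7.65, 7.77 and 8.27 in hsc82-W296A, against 6.12, 6.01 and 6.45 in WT Hsc82 (adjusted p = 0.00022). Only 1 mutant array was above background, so no fold is given. Its plaque partner SPO21 rose by 0.36 ± 0.11 (adjusted p = 0.0224), with both groups above background, and stood at -0.06 after quantile normalization. SPO73 rose by 0.51 ± 0.059 (adjusted p = 0.000306), averaging 11.70 ± 0.017 in hsc82-W296A and 11.19 ± 0.10 in WT Hsc82. SPO71, which works with SPO73 in membrane growth, rose by 0.26 (adjusted p = 0.0281) and stood at -0.11 after quantile normalization. The call of SPO21 was lost without hsc82-W296A replicate 3 or WT Hsc82 replicate 1 or 2 (adjusted p = 0.0601 to 0.0682), and that of SPO71 without those or hsc82-W296A replicate 2 (0.0743 to 0.0915). The calls of SPO21 and SPO71 were also lost after quantile normalization (adjusted p = 0.729 and 0.126) and median centring (0.0708 and 0.0774).

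Among the kinases and their partners, AMA1 and SPS1 passed. AMA1, the meiotic activator of the anaphase-promoting complex, read 8.40, 8.32 and 8.61 in hsc82-W296A, against 7.09, 6.84 and 7.31 in WT Hsc82, and was at least 1.10-fold higher (adjusted p = 0.000128). SPS1, a kinase for spore packaging, read 9.96, 9.57 and 9.99 in hsc82-W296A, against 9.25, 8.88 and 9.21 in WT Hsc82. It rose by 0.73 ± 0.14 (adjusted p = 0.00378), or by 0.36 without passing after quantile normalization (adjusted p = 0.0826). SMK1, the sporulation MAP kinase, its activator gene SSP2, SPO77 and, among the wall genes, SPO19 lay at 7.66 to 8.16 in hsc82-W296A and 7.54 to 7.97 in WT Hsc82 and did not pass as deposited. SPO19 passed without hsc82-W296A replicate 2 (0.27, adjusted p = 0.0113). With the arrays rescaled to match background and middle levels, SPO19 (0.26, adjusted p = 0.0304) and SPO77 (0.24, 0.0269) were called higher. After quantile normalization SMK1 (-0.31, adjusted p = 0.00431), SPO77 (-0.26, 0.00603) and SSP2 (-0.27, 0.0336) were called lower. SPS4 went the other way from AMA1 and SPS1. It read 8.43, 8.40 and 8.44 in hsc82-W296A, against 8.93, 9.10 and 9.31 in WT Hsc82, and fell by 0.69 on the log2 scale (SE 0.094, adjusted p = 0.000645), with no overlap of groups and the same direction and call in the 13 alternatives.

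Of the 4 late genes, SPS100 and DIT1 rose and DIT2 and DTR1 did not pass as deposited. Of all genes, 37.1% were higher and 30.3% lower, so a count out of 4 says little about the class. After quantile normalization 1 late gene was called higher and 1 lower, against 28.4% and 44.5% of all probe sets. DIT2 was called lower after quantile normalization (-0.26, adjusted p = 0.0298). It was called higher with background and middle levels matched (0.25, adjusted p = 0.0321). SPS100, which encodes a spore wall maturation protein, read 11.69, 11.63 and 11.43 in hsc82-W296A, against 7.93, 7.73 and 8.35 in WT Hsc82. Only 1 WT Hsc82 array was above background, so the fold is a lower bound, and SPS100 was at least 9.29-fold higher in hsc82-W296A (adjusted p = 6.45e-06). The fitted change, 3.58 as deposited, was 3.32 to 3.56 under the 3 other scalings. The antisense transcript SUT169 is annotated over 946 of its 981 bases, so the strand behind the signal cannot be told apart with these sources.

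DIT1, the first enzyme of dityrosine synthesis for the outer spore wall, read 9.36, 9.26 and 9.28 in hsc82-W296A, against 8.31, 8.63 and 8.88 in WT Hsc82, where 2 of 3 arrays were above background. It rose by 0.69 ± 0.13 (adjusted p = 0.00346), and by 0.20 without passing after quantile normalization (adjusted p = 0.132). DIT2, the gene next to DIT1 and the following enzyme of the pathway, was below background in both groups, at 7.64 in hsc82-W296A and 7.51 in WT Hsc82. So was DTR1, the dityrosine transporter, at 6.38 in hsc82-W296A and 6.33 in WT Hsc82. The other members that neighbour each other on a chromosome were SPS1 with SPS2 and SPO22 with HOP1.

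**Figure D4:**
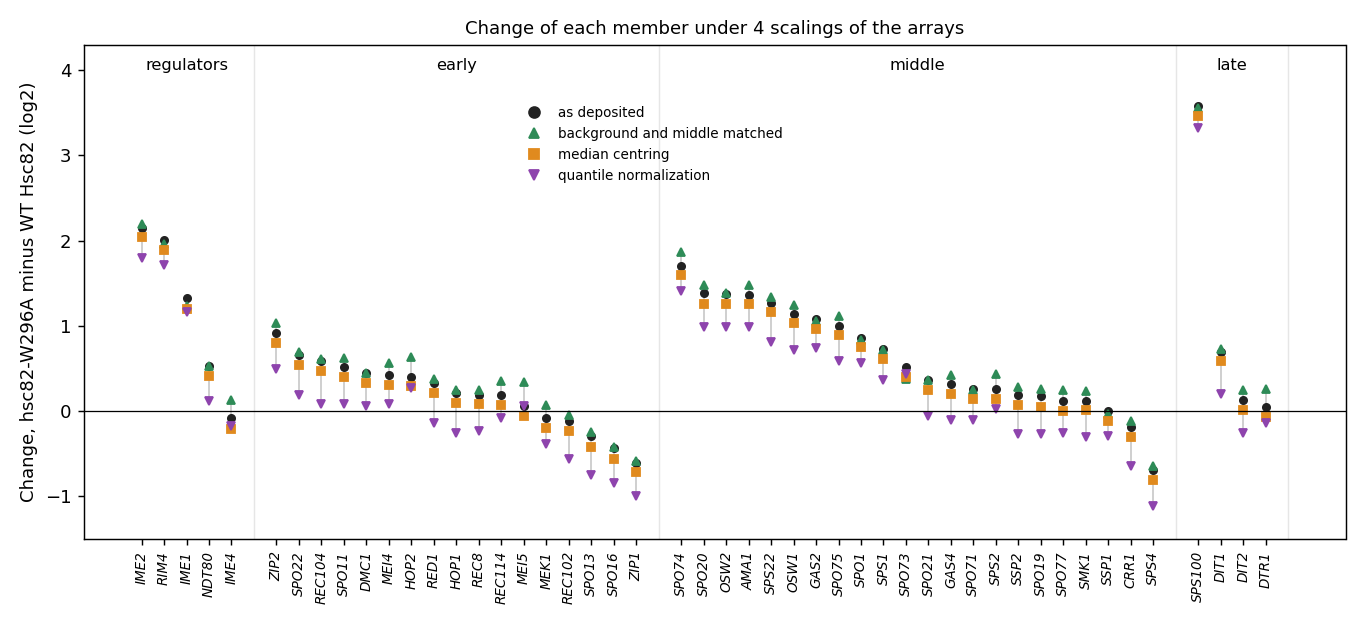
Change of each gene (log2, vertical axis, hsc82-W296A minus WT Hsc82) as deposited and under 3 other scalings of the arrays, joined by a grey line. Quantile normalization lowers the value of nearly every gene, including -0.26 for HOP1 against 0.21 as deposited. IME1, IME2, RIM4, SPO74 and SPS100 stay above 1 under all 4 scalings. SPS4, SPO16, ZIP1, SPO13, CRR1 and REC102 stay below 0 under all 4, although the call of REC102 did not pass as deposited.

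Members called higher numbered 16, 24 and 35 after quantile normalization, median centring, and rescaling to match background and middle levels, and 24 to 30 when 1 array was left out, lowest without WT Hsc82 replicate 2. Over all 5498 probe sets the counts called higher were 1561, 1709 and 1760 under these scalings, and 1749 to 2108 when 1 array was left out. Of the 30 that rose, 16 kept direction and call in every alternative in which they were tested, 3 of them regulators, 2 early, 10 middle and 1 late. Of the 5 that fell, SPO16, ZIP1 and SPS4 did so. Within groups, the median SD of the 48 was 0.095 in hsc82-W296A and 0.14 in WT Hsc82, beside 0.069 in hsc82-W296A and 0.075 in WT Hsc82 over all genes. Across the 48 genes the change had a Spearman correlation of 0.19 with annotated gene length, the same as over all 5449 genes. With the mean WT Hsc82 level, which itself enters the change, it was -0.02 across the 48 and -0.38 over all 5449 genes. Over all genes, those dimmer in WT Hsc82 thus tended to read higher in hsc82-W296A, and the shares of all genes given here are not matched for level.

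Other regulators of entry into meiosis were counted beside the 48. Of 18 genes listed as activators, 13 rose and 2 fell, against 37.1% and 30.3% of all genes. Their median was 0.50, or 0.22 after quantile normalization. The list holds SOK2, which rose by 0.53, and YHP1, at -0.52. Both are known as repressors of IME1, so these counts are not of activators alone. RIM15, a kinase that couples nutrient signals to meiosis and stationary phase, read 10.42, 10.52 and 10.84 in hsc82-W296A, against 9.26, 9.31 and 9.46 in WT Hsc82, and rose by 1.25 ± 0.12 (adjusted p = 0.00012). GIS1, a transcription factor downstream of Rim15, rose by 1.10, MSN4, a stress activator, by 0.68 and RIM21, of the pH-sensing pathway, by 0.65. The members of this list that fell were SNF4, a subunit of the Snf1 kinase, and YHP1.

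Of 15 repressors of entry, 14 were measured, and 5 rose and 2 fell, a share of increases near the 37.1% of all genes, and 6 fell after quantile normalization, against 44.5% of all probe sets. RME1, the repressor of IME1 in haploid cells, read 13.27, 13.36 and 13.30 in hsc82-W296A, against 12.11, 12.22 and 12.25 in WT Hsc82. It rose by 1.12 ± 0.053 (adjusted p = 8.43e-06), so the transcripts of IME1 and of its repressor were both higher. TPK2 and TPK3, catalytic subunits of protein kinase A, changed by 0.35 and -0.57 (adjusted p = 0.00133 and 0.000108), and UME1, of the complex that Ume6 recruits, rose by 0.29. The others that passed were SIN3 (0.51) and WTM1 (0.19), which rose, and SSN8 (-0.32), which fell. UME6 and SUM1, the repressors of early and middle genes, stood at -0.07 and -0.05 and did not pass (adjusted p = 0.483 and 0.628).

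Further sporulation genes outside the 48 were also mixed. Of 61 listed, 59 were measured, and 30 rose and 12 fell, against 37.1% and 30.3% of all genes. After quantile normalization 16 rose and 27 fell, close to the 28.4% and 44.5% of all probe sets, so the balance of this list depends on the scaling. LOH1 read 10.31, 10.37 and 10.63 in hsc82-W296A, against 6.96, 7.08 and 7.23 in WT Hsc82, below background there, and was at least 4.38-fold higher (adjusted p = 1.86e-06). CDA1, a chitin deacetylase of the spore wall, was at least 1.97-fold higher (adjusted p = 5.81e-06). SHC1, an activator of chitin synthesis in sporulation, rose by 1.92 ± 0.085 (adjusted p = 6.36e-06). IRC18, above background on 1 of 3 WT Hsc82 arrays, was at least 2.49-fold higher (adjusted p = 2.28e-05).

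Markers of mating type and ploidy were read beside these results. All 7 genes of MATa cells were above background in both groups, with a mean level of 12.31 to 12.36 in hsc82-W296A and 12.19 to 12.29 in WT Hsc82, with MFA1 and AGA2 higher and STE2 and BAR1 lower. The 4 genes of MATalpha cells had a mean level of 8.65 to 8.75 in hsc82-W296A and 7.68 to 7.87 in WT Hsc82, and MF(ALPHA)1, STE3 and SAG1 rose. Of these 4, MF(ALPHA)2 was below background in both groups and MF(ALPHA)1 and STE3 were above it in hsc82-W296A only. All 11 haploid-specific genes, RME1 among them, were above background in both groups, with a mean level of 11.27 to 11.34 in hsc82-W296A and 11.21 to 11.33 in WT Hsc82, with RME1 and STE18 higher and STE4, HO, STE12 and FUS1 lower. Of the mating-type loci, HMRA1 and HMRA2 were above background in both groups and rose, and HMLALPHA1 was below background in both. The part of cell type in the changes of the sporulation genes was not tested.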

How the data were processed

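Total RNA of 6 cultures was labelled as biotinylated cRNA from 5 µg and hybridised to Affymetrix arrays, per the labels' protocols. The deposited log2 values, 1 per probe set and array, had been normalized by the authors. Per the submitters' processing notes limma was used, in a role left unstated, and how background was corrected and probes summarized is not stated in the sources at hand. The log2 scale was judged from the range of the values.

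Of 10928 probe sets, 5498 matched S. cerevisiae genes of assembly R64 by gene ID, 1746 another species and 213 were controls. The highest mean was used where a gene had several. The fit was lmFit with eBayes (limma 3.58.1, R 4.3.3) with no block, p-values were adjusted over 5498 probe sets with Benjamini-Hochberg, and the script was tested on simulated data. Summaries used Python 3.11.15, numpy 2.4.6, pandas 2.3.3, scipy 1.17.1 and matplotlib 3.10.9. The number of arrays limits precision.

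Members, classes, lists and tests were chosen with earlier results of these data known. The timing classes and role groups come from general knowledge, and the role groups were assigned after the values were seen. Per-array values were given by rule for the 5 regulators and, in each other class, for up to 6 genes with the smallest adjusted p above background, and in each further list up to 4 genes were named. SPO16, RED1, SPS1, OSW2 and SPS4 were added after their values were seen. Promoter sequences were not used here, so the planned motif counts were not made. With group means removed, arrays sharing a replicate number had correlations of 0.405, 0.148 and 0.364 for replicates 1, 2 and 3. Arrays with different numbers had -0.387 to 0.139, so replicate 2 hardly stood out and pairing of the cultures is not settled. The main fit, which gave the reported SE and adjusted p, treated the cultures as unpaired. Only the replicate block alternative took the numbers as pairs, on these correlations alone. Alternatives were quantile normalization, median centring, rescaling so that background and middle match between arrays, a replicate block, an intensity trend, dim or shared probe sets left out, and each array left out.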

Additional observations from a re-analysis of the deposited data

How the results depend on the processing

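Signal over background and the scaling of the arrays limit these results. After quantile normalization 16 of the 48 genes were higher, 13 lower and 5 at least 2-fold higher, and the median change was 0.06, beside -0.09 for all probe sets. By class, the median was 1.16 for regulators, -0.08 for early genes (2 higher, 6 lower), 0.19 for middle genes (6 lower) and 0.03 for late genes (1 higher, 1 lower). The list of entry activators, with SOK2 and YHP1 in it, had 4 lower and a median of 0.22. Repressors had 6 lower and -0.05, and the other sporulation genes 16 higher, 27 lower and -0.04. Of all probe sets, 1561 were higher and 2446 lower, against 2028 and 1660 as deposited. After median centring (all probe sets 1709 higher and 2330 lower, median -0.07) the medians were 0.27 for the 48, 1.20, 0.09 and 0.32 for regulators, early and middle genes, 0.38, -0.07 and 0.19 for the 3 further lists, with 5 early genes and 4 repressors lower. With background and middle matched (1760 higher, 2235 lower, median -0.06) the medians were 0.35 for early genes, -0.07 for repressors and 0.23 for other sporulation genes, with 1 middle gene and 4 repressors lower. Leaving out dim probe sets kept 27 of the 48 members, and all 27 had the same direction and call as in the main fit. Of these 27, 18 were higher, 7 of them at least 2-fold, and 5 were lower. The higher ones included 4 of the 10 early and 8 of the 11 middle genes kept. Over all probe sets kept, 1912 were higher and 1626 lower. The medians were 0.51 for the members kept, 1.66 for regulators, 2.14 for late and 0.22 for other sporulation genes. With an intensity trend 1 middle gene was lower.

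Leaving out 1 array gave 24 to 30 members higher and 3 to 5 lower, with 3 lower without hsc82-W296A replicate 2 or WT Hsc82 replicate 2, and 1 to 2 middle genes lower, with 1 without either of those or hsc82-W296A replicate 3. In the same fits 1749 to 2108 of the 5498 probe sets were higher and 1437 to 1662 lower. The median of the other sporulation genes was 0.22 to 0.36. The replicate block gave 31 members higher and 5 lower, against 2236 higher and 1771 lower of the 5498 probe sets. Among the members RED1 was the one call it changed.

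Signs turned after quantile normalization for HOP1 and SPO77 (-0.26 each), RED1 (-0.14), REC8 (-0.24), REC114 (-0.08), SPO19, SSP2 (-0.27 each), SPO21 (-0.06), SPO71 and GAS4 (-0.11 each), SMK1 (-0.31), DIT2 (-0.26) and DTR1 (-0.14). They also turned after median centring for MEI5 (-0.06) and DTR1 (-0.07), with background and middle matched for IME4 (0.13) and MEK1 (0.07), and for SSP1 without hsc82-W296A replicate 3 (0.07) or WT Hsc82 replicate 3 (0.04). The cause was not tested. Members at or below background by their mean were 14 at the 90th and 26 at the 99th percentile, against 21. Those above background in hsc82-W296A only were 11 with 1 level for all arrays and 12 with background and middle matched, both chosen after seeing the data.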
